A study of Mus musculus with 3 samples.

Results

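The genes described here write, copy, read and remove DNA methylation. They were chosen by name, with earlier results of these data known. They are the methyltransferases Dnmt1, Dnmt3a and Dnmt3b and the DNA-binding cofactors Uhrf1 and Uhrf2. The others are the dioxygenases Tet1, Tet2 and Tet3, the glycosylase Tdg and the methyl-CpG reader Mbd2. The members are 10 of the 55536 genes in the deposited gene tables. GENCODE M21 lists 94 transcript forms for them, of which 33 are protein-coding with a coding region annotated as complete. RNA came from naive thymus-derived CD4 αβ T cells, helper T cells that have not yet met antigen, of 1 male B6.SJL-Ptprca Pepcb/BoyJ mouse aged 5 months. PolyA-selected RNA from this biological replicate (1 in all) gave 3 technical libraries. Each SD therefore measures technical spread (n = 3), and no treatment, time or second animal was compared.

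DNA methylation in mammals is mostly placed on the cytosine of CpG. Dnmt1 is the maintenance enzyme: it copies the mark onto the new strand after replication, and Uhrf1 brings it to hemimethylated sites. Dnmt3a and Dnmt3b are the de novo enzymes, which methylate sites without a template. The TET enzymes oxidise 5-methylcytosine, Tdg cuts out the most oxidised bases so that base excision repair can put an unmodified cytosine back, and Mbd2 binds methylated CpG and recruits the NuRD repressor complex. In T cells, Dnmt3a and Tet2 are known as regulators of helper-cell fate.

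The active-site codons of the enzymes are shown first, because the levels below are summed over forms that may or may not hold them. In the methyltransferases the capitals mark the codons of the catalytic proline and cysteine, and all windows are coding exon sequence of GRCm38, read 5′ to 3′ on the gene's strand (Dnmt1 chr9:20911801-20911830 minus strand, Dnmt3a chr12:3902411-3902440 plus strand, Dnmt3b chr2:153677201-153677230 plus strand).
Dnmt1: tgtggtgggccaCCCTGCcagggcttcagt
Dnmt3a: attggaggcagtCCCTGCaatgacctctcc
Dnmt3b: attggtggaagcCCATGCaatgatctctct
Of the 30 bases, Dnmt3a and Dnmt3b had 24 in common, and Dnmt1 had 16 in common with each of them. In the TET genes the capitals mark the histidine, the middle residue and the aspartate of the motif that holds the catalytic iron (Tet1 chr10:62814460-62814489, Tet2 chr3:133471364-133471393, Tet3 chr6:83373218-83373247, all minus strand).
Tet1: ttttgtgcccattctCACAAGGACattcac
Tet2: ttctctgctcattccCACAGAGACcagcag
Tet3: ttctgtgcccacgccCACAAGGACcaacat
Here Tet3 had 22 bases in common with Tet1 and 22 with Tet2, and Tet1 and Tet2 had 20 in common. For Tdg the capitals mark the glycine, isoleucine, asparagine, proline and glycine codons around its catalytic asparagine (chr10:82642021-82642050, plus strand).
Tdg: attGGCATTAACCCGGGAttaatggctgct

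Several of these genes have forms that begin their protein at different start codons, and those starts carry the comparison of forms. Capitals mark the start codon in each coding window below. The 1620-residue form of Dnmt1 starts at chr9:20952758-20952787 and the 1501-residue form at chr9:20941425-20941454, both on the minus strand. The 908-residue form of Dnmt3a starts at chr12:3835198-3835227 and the 689-residue form, known as Dnmt3a2, at chr12:3895573-3895602, both on the plus strand. The Tet3 form that holds a CXXC zinc finger motif, which binds CpG in DNA, starts at chr6:83455023-83455052 and the form without it at chr6:83404750-83404779, both on the minus strand. Uhrf1 (chr17:56305098-56305127) and Uhrf2 (chr19:30030779-30030808), both on the plus strand, are shown beside each other as paralogs.
Dnmt1 1620 residues: ATGccagcgcgaacagctccagcccgagtg
Dnmt1 1501 residues: ATGgcagactcaaatagatccccaagatcc
Dnmt3a 908 residues: ATGccctccagcggccccggggacaccagc
Dnmt3a 689 residues: ATGaatgctgtggaagagaaccaggcctct
Tet3 1803 residues: ATGagccagtttcaggtgcccttggcggtc
Tet3 1668 residues: ATGgactcagggccagtgtaccatggagat
Uhrf1: ATGtggatccaggttcgaactatggatggg
Uhrf2: ATGtggatccaggtccgcaccatcgacggc

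Libraries 1, 2 and 3 held 14837442, 18207118 and 17505621 expected counts, the reads assigned to each gene by estimation, fractions allowed. Levels are given in TPM (the deposited abundance per length, scaled to a fixed sum in each library), and detected means at least 1 TPM in each of the libraries. All 11 markers of naive CD4 T cells were detected, with Cd4 at 444 ± 6.42 TPM and Ccr7, a homing receptor of naive cells, at 2632 ± 111 TPM (mean ± SD, n = 3). Markers of other cell types were low: their summed TPM ran from 16.95 to 17.39 for CD8 T cells (Cd8b1 17.0 ± 0.24, Cd8a 0.140 ± 0.046), 2.07 to 3.04 for 5 B cell genes, 1.82 to 2.27 for 5 myeloid genes, 0.28 to 0.51 for 3 natural killer cell genes, 1.54 to 1.98 for 3 erythroid and platelet genes and 0.45 to 0.65 for 4 genes of stroma, epithelium and endothelium. In bulk RNA, a gene low in every cell and a gene high in a few cells cannot be told apart. Across the 13090 genes that averaged 10 counts or more, a chi-square test of homogeneity with Benjamini-Hochberg adjustment called 5238 (40.0%) different between the libraries at an adjusted p below 0.05, and 1903 of 12917 when library 2 was left out.

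All 10 genes were detected, against 9823 of 22028 protein-coding genes (44.6%), and the median of their mean TPM was 61.8 against 0.36 over all protein-coding genes. In order of mean TPM they ran Mbd2, Uhrf2, Tdg, Tet3, Dnmt1, Dnmt3a, Tet2, Tet1, Dnmt3b and Uhrf1. The ranges of the 3 libraries overlapped between Tet3 and Dnmt1 and between Dnmt1 and Dnmt3a, so those neighbours were not separated, and each of the other neighbouring pairs had ranges that did not overlap. Over all forms, Uhrf2 lay near the top and its paralog Uhrf1 at the bottom, and Tet3 lay above Tet2 and Tet2 above Tet1.

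**Figure D1:**
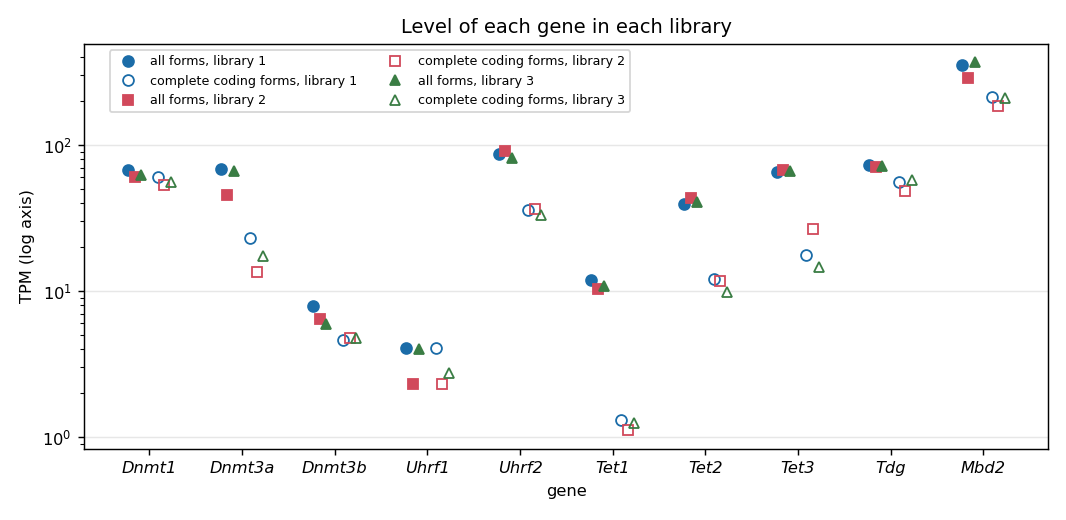
TPM of the 10 genes on a log axis in each of the 3 libraries, summed over all annotated forms (filled) and over complete coding forms only (open). Mbd2 is highest in both; Tet1 lies at 10.3 to 11.9 TPM over all forms and at 1.11 to 1.30 TPM over complete coding forms.

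Dnmt1 (chromosome 9, 20907209 to 20959888, minus strand) stood at 67.4, 60.7 and 62.1 TPM in libraries 1, 2 and 3, from 2780, 3201 and 3043 expected counts. It held a position above 70.2% of detected protein-coding genes. Dnmt3a (chromosome 12, 3806007 to 3914443, plus strand) stood at 68.4, 45.7 and 66.8 TPM, so that library 2 lay apart from the other libraries. Its expected counts were 1309, 1320 and 1391, and the effective length that the deposited table gives the gene, a mean over its forms, was 2229, 2593 and 2041 bases. Dnmt3b (chromosome 2, 153649450 to 153687730, plus strand) was low, at 7.88, 6.47 and 5.95 TPM from 177, 218 and 197 counts.

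The maintenance enzyme and the de novo enzyme Dnmt3a were not separated over all forms: the log2 ratio of Dnmt1 to Dnmt3a was 0.09 ± 0.28 (SD, n = 3), with Dnmt1 the higher in 1 of 3 libraries. Without library 2 the mean was -0.06. Dnmt1 exceeded Dnmt3b in 3 of 3 libraries, by a log2 ratio of 3.22 ± 0.14, or 9.37-fold over the pooled libraries (exact Clopper-Pearson 95% interval 8.62 to 10.2, which covers counting error only). That log2 ratio was 3.92 ± 0.05 with no length correction and 4.24 ± 0.19 in the older count table. Dnmt3a exceeded Dnmt3b by a log2 ratio of 3.12 ± 0.33, again in 3 of 3 libraries. Dnmt3b gave 5.21% ± 0.70 of the summed TPM of the 3 methyltransferases.

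The UHRF genes were far apart. Uhrf2 (chromosome 19, 30030513 to 30093722, plus strand), a paralog of Uhrf1 that binds hydroxymethylated DNA as well, stood at 86.3, 90.6 and 81.8 TPM. Uhrf1 (chromosome 17, 56303321 to 56323486, plus strand) stood at 4.09, 2.31 and 4.01 TPM from 118, 86 and 101 counts, above 8.98% of detected protein-coding genes. The log2 ratio of Uhrf1 to Uhrf2 was -4.64 ± 0.52, Uhrf2 being higher in 3 of 3 libraries and 24.8-fold higher over the pooled libraries (exact 95% interval 22.1 to 27.9). Dnmt1 exceeded its cofactor Uhrf1 by a log2 ratio of 4.20 ± 0.40, which was 4.87 ± 0.32 with no length correction and 5.59 ± 0.20 in the older count table. Of the 50-base stretches of Uhrf1 transcripts, 15.4% also occur in transcripts of other genes, most of them in the processed pseudogene Gm5648, which was listed at 0 in each library.

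Among the dioxygenases, Tet3 (chromosome 6, 83362373 to 83459084, minus strand) was highest, at 65.2, 67.9 and 66.6 TPM. Tet2 (chromosome 3, 133463679 to 133545139, minus strand) stood at 39.1, 43.0 and 40.5 TPM, and Tet1 (chromosome 10, 62804570 to 62908996, minus strand) at 11.9, 10.3 and 10.8 TPM. The order was the same in every library, and neither pair of neighbours overlapped. The log2 ratio of Tet2 to Tet3 was -0.70 ± 0.04, so Tet3 was 1.63-fold higher over the pooled libraries (exact 95% interval 1.57 to 1.69). Tet2 exceeded Tet1 by a log2 ratio of 1.89 ± 0.17 and Tet3 exceeded Tet1 by 2.59 ± 0.13. Tet3 made up 56.2% ± 0.23 of the summed TPM of the 3 TET genes and Tet1 9.28% ± 0.86.

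Writers and erasers were close when all forms were summed. The 3 methyltransferases totalled 144, 113 and 135 TPM and the 3 TET genes 116, 121 and 118 TPM, so the order was turned in library 2. The log2 ratio was 0.13 ± 0.21, smaller than its own spread. Between single genes, Tet2 lay below Dnmt3a in 3 of 3 libraries, by a log2 ratio of -0.54 ± 0.39, and that order was not kept by expected counts without a length correction, which gave 0.02 ± 0.22. Tet3 and Dnmt3a were not separated (log2 ratio 0.17 ± 0.35, Tet3 higher in 1 of 3 libraries; -0.04 without library 2).

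**Figure D2:**
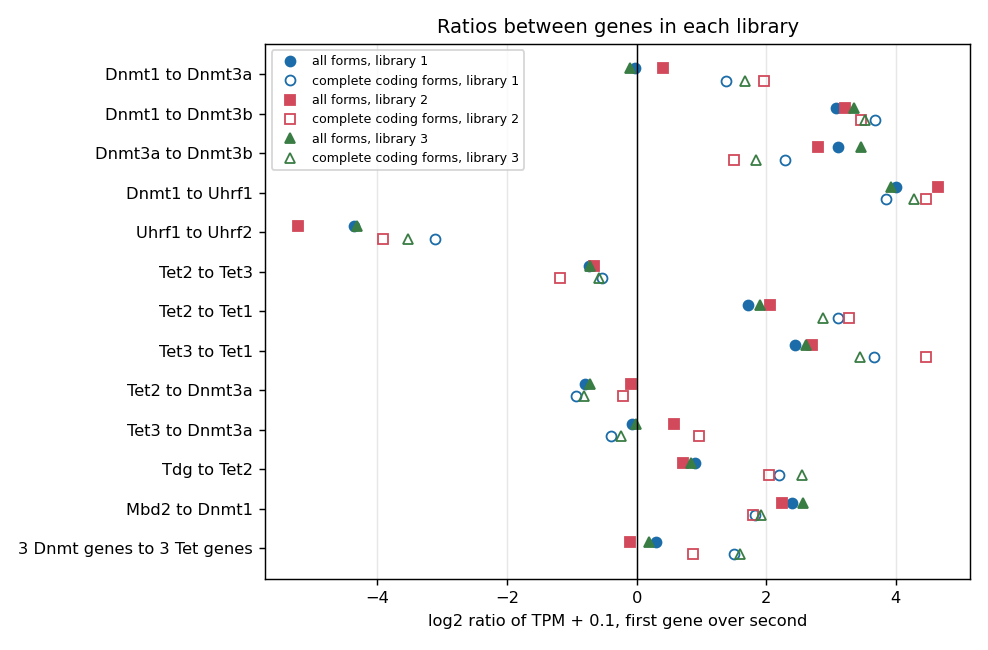
Log2 ratio of TPM + 0.1 for 12 pairs of genes and for the summed Dnmt and Tet genes, 1 point per library, over all forms (filled) and complete coding forms (open). Dnmt1 to Dnmt3a and the summed ratio lie about 0 over all forms and above 0 in every library over complete coding forms.

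Downstream of the TET enzymes, Tdg (chromosome 10, 82629828 to 82650799, plus strand) stood at 73.2, 70.6 and 72.2 TPM and exceeded Tet2 by a log2 ratio of 0.82 ± 0.09 in 3 of 3 libraries; the older count table turned this order, at -3.38 ± 0.06. In the deposited table of whole-number counts on the older GENCODE M4 annotation, whose totals are lower and whose counting tool is not named, Tdg had 72, 90 and 76 counts, 4.54% of its expected counts, where the median gene kept 51.5% and 4.36% of 10709 genes kept less than Tdg. The other members kept 33.6% (Mbd2) to 81.4% (Tet1). Of the 50-base stretches of Tdg transcripts, 41.2% occur in transcripts of other genes, most often the processed pseudogene Tdg-ps, which was listed at 0 in the gene tables. What part shared sequence had in the low older count was not tested. Exons of Tdg overlap Glt8d2 on the opposite strand by 367 bases, and Glt8d2 stood at 2.24, 1.10 and 0.87 TPM. Whether counting used strand is not given in the sources used here.

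The reader Mbd2 (chromosome 18, 70568189 to 70626131, plus strand) was the highest of the group, at 355, 287 and 368 TPM, above 95.8% of detected protein-coding genes. It exceeded Dnmt1 by a log2 ratio of 2.40 ± 0.16, or 5.31-fold over the pooled libraries (exact 95% interval 5.17 to 5.45). With no length correction the log2 ratio was 0.58 ± 0.10, and in the older count table it turned to -0.62 ± 0.05. None of its 50-base stretches occurs in a transcript of another gene.

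TPM of a gene sums all of its annotated forms, short and partial ones included. The share of TPM on complete coding forms was 88.7% ± 0.69 for Dnmt1, 89.6% ± 18 for Uhrf1, 75.0% ± 5.77 for Tdg, 70.5% ± 10.8 for Dnmt3b and 60.7% ± 3.73 for Mbd2. It was 40.7% ± 0.90 for Uhrf2, 29.8% ± 3.93 for Dnmt3a, 29.3% ± 8.77 for Tet3, 27.3% ± 3.32 for Tet2 and 11.1% ± 0.41 for Tet1. Over the 9823 detected protein-coding genes the median share was 77.1%, and 8 of the 10 genes lay under it; 4.79% of detected genes had a smaller share than Tet1. As shares of expected counts rather than TPM, complete forms held far more of the same genes: 57.3% ± 0.49 for Tet1, 74.1% ± 1.69 for Tet2 and 63.3% ± 8.67 for Tet3. The difference between these scales is that TPM divides by length, and the complete TET forms are long (14369 bases for Tet1-206, 9179 for Tet2-201) beside the short forms (1505 bases for Tet1-202, 423 for Tet2-205).

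**Figure D3:**
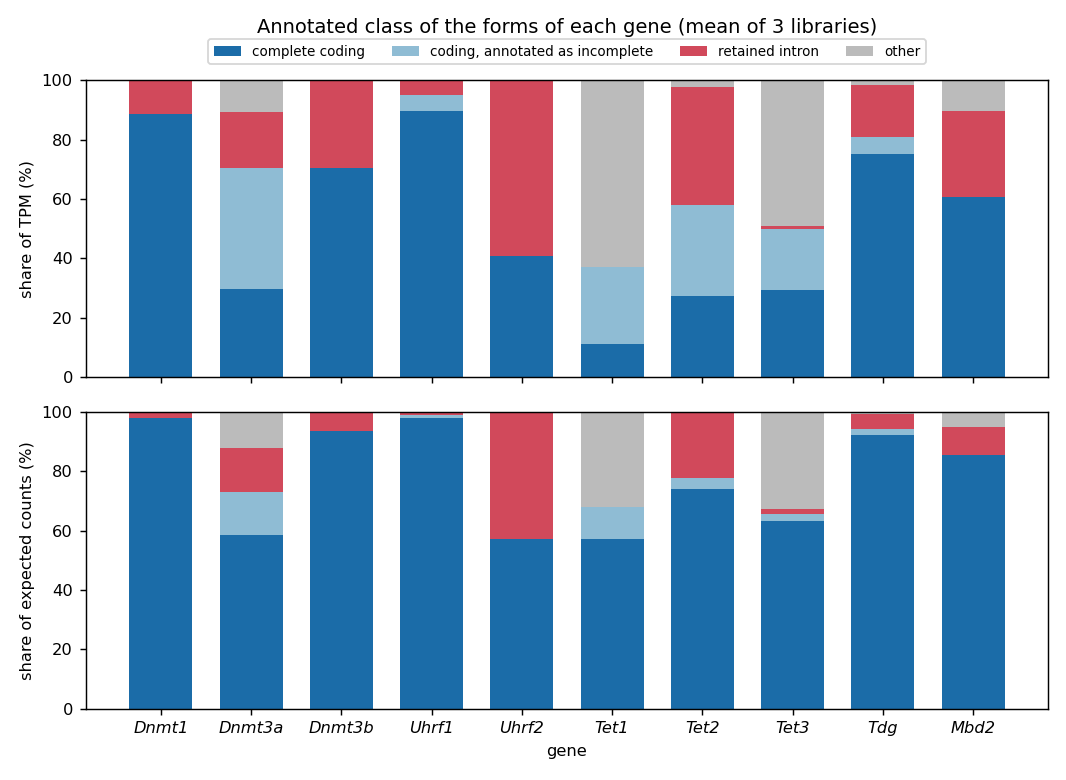
Mean share of each gene's TPM (top) and expected counts (bottom) on complete coding forms, coding forms annotated as incomplete, retained-intron forms and other forms, over 3 libraries. Complete coding forms hold 11.1% of the TPM of Tet1 but 57.3% of its expected counts.

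On complete coding forms alone, a scale chosen after these shares were seen, several relations between the genes moved. That scale depends on how reads were split between forms, which is described below for single forms. Dnmt1 then stood at 60.0, 53.4 and 55.4 TPM and Dnmt3a at 23.1, 13.6 and 17.3 TPM, so that Dnmt1 was higher in 3 of 3 libraries with a log2 ratio of 1.67 ± 0.30. The summed methyltransferases exceeded the summed TET genes in 3 of 3 libraries, with 87.7, 71.7 and 77.4 TPM against 30.9, 39.3 and 25.7 TPM and a log2 ratio of 1.32 ± 0.40. Dnmt1 made up 71.5% ± 3.05 of the methyltransferase sum on this scale and 48.9% ± 4.24 over all forms. The order Tet3, Tet2, Tet1 was kept in each library: Tet3 stood at 17.6, 26.5 and 14.6 TPM, Tet2 at 12.0, 11.7 and 9.77 TPM and Tet1 at 1.30, 1.11 and 1.25 TPM. Dnmt3a still exceeded Dnmt3b in 3 of 3 libraries, by a smaller log2 ratio of 1.88 ± 0.40. The log2 ratios to Tet1 were wider, 3.09 ± 0.21 for Tet2 and 3.86 ± 0.53 for Tet3, as was that of Tdg to Tet2, at 2.27 ± 0.26. Uhrf2 still exceeded Uhrf1, with a log2 ratio of Uhrf1 to Uhrf2 of -3.52 ± 0.40. The lowest gene on this scale was Tet1, at a mean of 1.22 TPM, below Uhrf1 at 3.05 and Dnmt3b at 4.70, with ranges that did not overlap. Uhrf2, at 35.1 TPM, lay below Mbd2, Dnmt1 and Tdg.

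The coding forms of Dnmt1 divide by their first exon. The 1620-residue form, the usual form of body cells, held 55.3%, 49.2% and 48.3% of the gene's TPM, and Dnmt1-202, a 1501-residue form that begins at an upstream first exon and lacks the start codon of the longer form, held 31.0%, 38.2% and 40.7%. An upstream-start form of this length is known from oocytes. The 1620-residue form was the higher in every library, and its shares did not overlap with those of the shorter form. The deposited tables give the count of Dnmt1-202 as 932, 1344 and 1340 with posterior standard deviations of 202, 174 and 225, which measure how well reads could be split between forms. Only 154 of its 5199 stretches of 50 bases (2.96%) occur in no other form of the gene, and 182 of 5318 for Dnmt1-201, so the split rested on reads from a small part of each transcript. The 250 bases upstream of the start of each of these forms are shown, with each CpG in capitals. They lie before RefSeq starts on GRCm38.p6, minus strand, at chr9:20952980-20953229 for the 1620-residue form and chr9:20959889-20960138 for Dnmt1-202.
Dnmt1 start of the 1620-residue form: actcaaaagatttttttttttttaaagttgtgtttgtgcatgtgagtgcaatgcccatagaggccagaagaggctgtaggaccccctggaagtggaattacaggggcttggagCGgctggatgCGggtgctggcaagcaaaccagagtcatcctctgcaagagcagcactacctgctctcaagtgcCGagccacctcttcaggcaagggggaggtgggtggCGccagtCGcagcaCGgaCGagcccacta
Dnmt1 upstream start: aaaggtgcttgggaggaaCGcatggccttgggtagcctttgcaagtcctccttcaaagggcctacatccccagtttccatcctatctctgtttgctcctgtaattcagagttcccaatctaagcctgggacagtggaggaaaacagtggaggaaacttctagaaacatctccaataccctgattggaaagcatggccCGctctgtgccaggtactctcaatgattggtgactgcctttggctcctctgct
The first holds 7 CpG and the second 2. Over the 300-base windows that run 50 bases past each start, these starts had 12 and 2 CpG, where 60.4% and 14.1% of 32851 RefSeq windows had fewer. Another RefSeq start of Dnmt1, at 20952623, is the first base of the 1501-residue form Dnmt1-203. Its window, chr9:20952574-20952873, holds the start codon of the 1620-residue form and had 33 CpG, where 91.4% of windows had fewer.

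Dnmt3a forms were spread more widely. The 689-residue form Dnmt3a-205, which starts inside the gene and lacks the amino-terminal stretch of the long form, held 25.3%, 15.8% and 18.9% of the gene's TPM. The 908-residue forms Dnmt3a-201 and Dnmt3a-218 together held 8.46%, 13.9% and 6.99%. In TPM the short form was the higher in 3 of 3 libraries, at 17.3, 7.22 and 12.6 against 5.79, 6.33 and 4.67. In expected counts, which are not divided by length, the 908-residue forms were the higher in 3 of 3 libraries, with 472, 623 and 433 against 339, 183 and 293. Dnmt3a-201 and Dnmt3a-218 run to 3914443 and 3913491, and Dnmt3a-205 ends at 3907842. Reads from that longer 3′ end cannot tell which start codon a transcript held. The 689-residue form Dnmt3a-203 also runs to 3914443 and was listed at 0 in each library. Only 16 of the 2279 stretches of 50 bases in Dnmt3a-205 occur in no other form, and its count of 183 in library 2 had a posterior standard deviation of 88.9. Library 2 also gave Dnmt3a-218, of 8737 bases, 11.9% of the gene's TPM against 1.26% and 4.03% in libraries 1 and 3. The remaining forms of at least 10% on average were the incomplete coding forms Dnmt3a-206 (21.1% ± 5.53) and Dnmt3a-204 (10.9% ± 0.37), the retained-intron form Dnmt3a-202 (16.7% ± 0.56) and Dnmt3a-215, annotated as a target of nonsense-mediated decay (10.9% ± 3.98). Of their 50-base stretches, 0 of 778 in Dnmt3a-206 and 45 of 2564 in Dnmt3a-215 occur in no other form. The Dnmt3a-206 counts of 110.6, 58.4 and 129.5 had posterior standard deviations of 14.05, 14.67 and 15.56. The Dnmt3a-215 counts of 98.8 in library 1 and 204 in library 3 had posterior standard deviations of 79.1 and 130. The share of Dnmt3a-215 was therefore less well fixed than that of Dnmt3a-206. The antisense gene Dnmt3aos, which overlaps 133 exon bases of Dnmt3a, was listed at 0, 0.20 and 0.07 TPM.

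For Dnmt3b, the annotated complete forms differ in several exons, among them exons of 60 and 115 bases that 6 and 5 of the 10 forms hold. The forms are compared here by a pair of exons of 70 and 119 bases near the 3′ end, which code for part of the catalytic domain. Forms without both exons held 66.9%, 67.4% and 55.7% of the TPM of complete forms, at 3.09, 3.19 and 2.64 TPM, and forms with both held the rest, at 1.53, 1.54 and 2.10 TPM. The forms without them were the higher in each library, from 104, 142 and 106 counts. By the deposited posterior mean estimates they were level, forms with both exons holding 33.0% ± 7.62 of the gene's TPM and forms without them 33.8% ± 1.57. Single Dnmt3b forms were not fixed by these reads: Dnmt3b-206 and Dnmt3b-205, both of 776 residues and without the exons, changed places between libraries (30.0%, 13.0% and 30.3% against 9.27%, 36.4% and 14.1%), and neither holds a stretch of 50 bases that no other form has. Dnmt3b-207, which has the exons, was listed at 0 in library 1 and averaged 11.0% ± 9.69. The retained-intron forms Dnmt3b-212 and Dnmt3b-211 averaged 17.9% ± 4.17 and 11.7% ± 7.19 from fewer than 10 counts in every library. Of the stretches of Dnmt3b transcripts, 9.81% also occur in Dnmt3c, a germline relative at 0.08 TPM in library 1 and listed at 0 in the others.

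The deposited TPM placed 80.9%, 100% and 51.9% of Uhrf1 on Uhrf1-204, a 782-residue form, on counts of 94.9, 86.0 and 71.0. Forms of 774 residues took 19.1%, 0% and 17.0%, on 23.1, 0 and 23.1 counts. This split was not kept by the deposited posterior mean estimates, in which forms of 782 residues held 39.0% ± 8.96 and forms of 774 residues 30.6% ± 1.5, and Uhrf1-204 has no stretch of 50 bases of its own. In Uhrf2 the complete form Uhrf2-201 of 803 residues held 41.7%, 40.0% and 40.4%, and every other form is annotated as a retained intron, led by Uhrf2-202 (33.5% ± 2.02) and Uhrf2-206 (11.9% ± 2.07). Retained-intron forms took 59.3% ± 0.90 of Uhrf2 TPM, a larger share than in 96.4% of detected protein-coding genes, where the median was 3.91%. By counts, they held 42.8% ± 0.23.

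**Figure D4:**
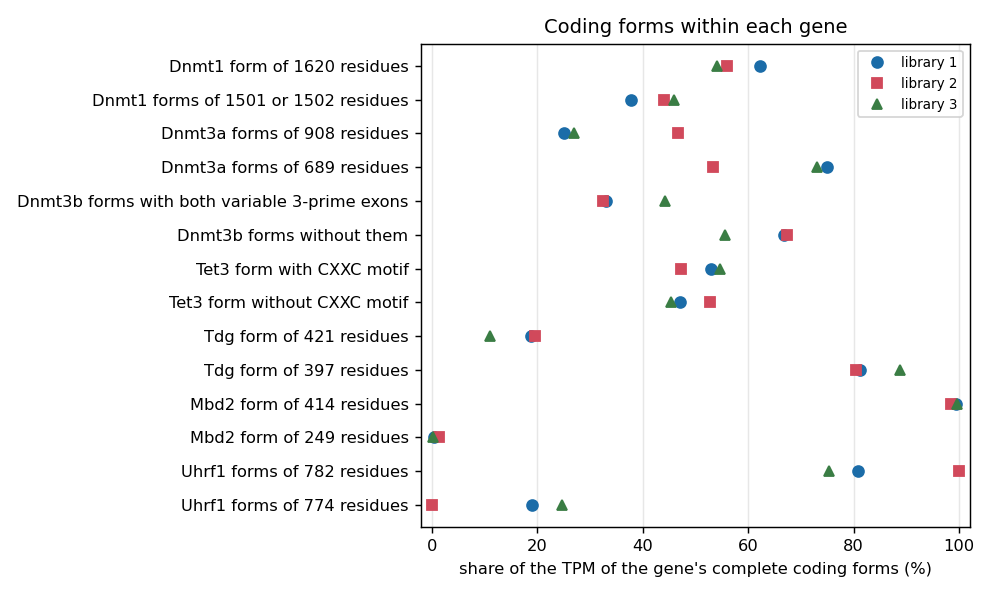
Share of the TPM of a gene's complete coding forms held by each group of forms, 1 point per library. The Dnmt1 forms of 1620 residues lie between 54.1% and 62.2% and the Tet3 forms with and without the CXXC motif between 45.3% and 54.7%.

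In TPM, much of each TET gene lay on forms outside the complete coding set. Tet1-202, a processed transcript with no coding region, held 50.5%, 64.2% and 62.6% of Tet1 TPM. Tet1-205, a coding form annotated as incomplete that still holds the iron-binding motif printed above, held 38.6%, 13.7% and 25.8%. Of their 50-base stretches, 11.5% in Tet1-202 and 3.83% in Tet1-205 occur in no other form. The posterior standard deviations of their counts were 4.35, 4.78 and 5.17 for Tet1-202 and 5.15, 4.94 and 5.10 for Tet1-205. The complete forms Tet1-206 (2039 residues) and Tet1-201 (2007 residues) held 9.53% ± 2.33 and 1.58% ± 1.99; both hold a CXXC motif. In expected counts Tet1-206 led in each library, at 146, 115 and 183 against 74.8, 107 and 100.4 for Tet1-202. Tet2-205, incomplete and coding for 45 residues, held 30.8% ± 8.02 from 27.6, 58.8 and 58.1 counts, beside 943, 1186 and 911 counts on the complete form Tet2-201 (1912 residues, no CXXC motif), which held 27.3% ± 3.32 of TPM. These Tet2 shares were not separated: Tet2-201 was the higher in library 1 and Tet2-205 in libraries 2 and 3. The retained-intron forms Tet2-210 and Tet2-203 held 22.4% ± 1.79 and 11.6% ± 2.18. Stretches found in no other form made up 89.7% of Tet2-210, 70.5% of Tet2-203 and 24.9% of Tet2-205. Gm42567 overlaps Tet2 by 43 exon bases on the opposite strand.

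In Tet3 the processed transcript Tet3-201 held 50.5%, 45.8% and 51.2% of TPM and the incomplete form Tet3-204 held 21.4%, 14.0% and 25.8%. Of their 50-base stretches, 7.36% in Tet3-201 and 18.6% in Tet3-204 occur in no other form. The Tet3-201 counts of 699, 857 and 859 had posterior standard deviations of 27.2, 34.6 and 28.6. The complete forms with and without the CXXC motif were level in TPM: Tet3-203, with the motif, stood at 9.30, 12.5 and 8.01 TPM and Tet3-202, without it, at 8.26, 14.0 and 6.63 TPM, so the order was turned in library 2. In expected counts Tet3-202, which is 10904 bases long against 5944, was the higher in 3 of 3 libraries, at 769, 1691 and 734 against 471, 824 and 482. Of the 50-base stretches of Tet3-202, 52.2% occur in no other form, and of those of Tet3-203, 14.1%. Tet3-202 runs to 83362373 and Tet3-203 ends at 83368042, so these forms differ at the 3′ end as well as in the motif. Reads from the longer 3′ end of Tet3-202 cannot tell whether a transcript held the CXXC motif.

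Tdg-201, of 397 residues, held 61.7%, 55.4% and 71.4% of Tdg TPM, and Tdg-208, of 421 residues with a first exon that overlaps that of Tdg-201 and ends further downstream, held 14.3%, 13.5% and 8.92%, below it in every library. Both hold the active-site codons of Tdg. Of their 50-base stretches, 79 of 2910 in Tdg-201 and 475 of 3453 in Tdg-208 occur in no other form. The Tdg-208 counts of 310, 366 and 227 had posterior standard deviations of 70.6, 70.7 and 54.4. Tdg-208 runs to 82650799 and Tdg-201 ends at 82650324. Reads from the longer 3′ end cannot tell which first exon a transcript held. The retained-intron form Tdg-205 held 13.7% ± 4.02.

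Mbd2-201, of 414 residues, held 59.8%, 63.7% and 57.1% of Mbd2 TPM, and the 249-residue coding form Mbd2-202 held 0.31%, 0.94% and 0.18%. The retained-intron form Mbd2-204 held 28.5% ± 4.80, and Mbd2-203, annotated for nonsense-mediated decay, 10.6% ± 1.38. By expected counts, complete coding forms held 85.4% ± 1.66 of Mbd2, retained-intron forms 9.59% ± 1.96 and Mbd2-203 5.04% ± 0.54. Mbd2-204 is 494 bases long, and 61 of its 445 stretches of 50 bases occur in no other form.

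Differences between libraries were tested on counts scaled for library size, with no length correction. The chi-square test of homogeneity called 7 of the 10 genes, against 40.0% of all genes tested and 46.3% of 8373 genes with total counts in the range of these. The ratio of the highest to the lowest library was 1.13 in the median of the 10 genes, 1.2 over all genes tested and 1.15 over the genes of like depth. Tet3 differed most among them, at 2273, 3255 and 2081 scaled counts (ratio 1.56, adjusted p = 2.3e-69, chi-square test with edgeR-scaled sizes), while its TPM stayed within 65.2 to 67.9. The effective length of Tet3 in the deposited tables was 3611, 4570.4 and 3215 bases, longest in library 2, where the long form Tet3-202 took the most counts. Uhrf1 had the widest ratio, 1.64, at 133, 81.0 and 96.3 scaled counts (adjusted p = 0.0047, same test).

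The other genes that the test called differed by less. Tet2 had a ratio of 1.25 (adjusted p = 1.1e-07, edgeR-scaled sizes), Dnmt3a of 1.19 (adjusted p = 0.00028), Uhrf2 of 1.17 (adjusted p = 3.9e-06), Mbd2 of 1.10 (adjusted p = 3.3e-05) and Dnmt1 of 1.08 (adjusted p = 0.041). Dnmt3b, Tet1 and Tdg were not called (ratios 1.09, 1.08 and 1.04, adjusted p of 0.75, 0.73 and 0.56). Over the 10 genes, the scaled counts of the technical libraries differed by 1.04-fold to 1.64-fold.

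**Figure D5:**
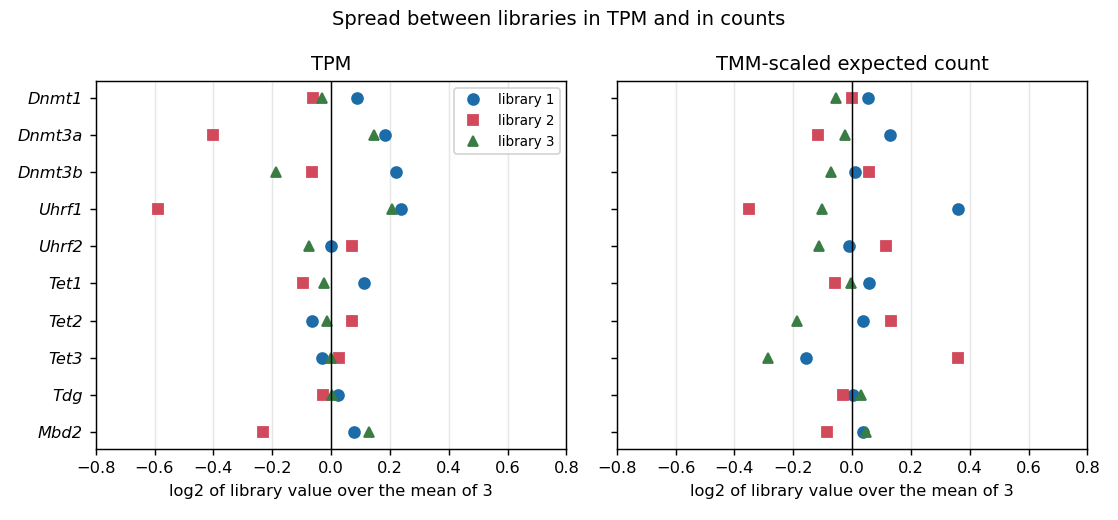
Log2 of each library's value over the mean of the 3 libraries for each gene, in TPM (left) and in TMM-scaled expected counts (right). In library 2 Tet3 is high in counts but not in TPM, and Dnmt3a is low in TPM by more than in counts.

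Partners of these enzymes were mostly present. Of the 56 genes in 5 pathway lists, 48 were detected (85.7%). Among 13 partners and regulators of the writers, 10 were detected, led by Pcna, the replication clamp that Dnmt1 binds (155 ± 9.80 TPM), Usp7, a deubiquitinase that acts on Uhrf1 and Dnmt1 (151 ± 11.2), Trim28, a repressor scaffold (101 ± 16.4), and Ehmt1, a histone H3 lysine methyltransferase (51.4 ± 6.67). Dnmt3l, the germline cofactor of Dnmt3a, Dppa3, an oocyte inhibitor of Uhrf1, and Zfp57, an imprint-binding zinc finger protein, were at 0 counts in every library, which allows up to 3 counts in each.

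All 12 genes listed as other readers, NuRD subunits included, were detected. Mbd3, a NuRD subunit related to Mbd2 that binds methylated DNA weakly, stood at 114 ± 12.9 TPM and Gatad2a, another NuRD subunit, at 105 ± 10.4 TPM. Mbd1 followed at 42.7 ± 4.73 TPM. Mbd2 at 336.5 ± 43.4 TPM was above each of these in every library.

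Of 14 base excision repair and Gadd45 genes, 12 were detected, led by the glycosylase Neil1 (87.6 ± 5.03 TPM), the endonuclease Apex1 (65.2 ± 12.9), Gadd45a (58.5 ± 5.25) and the scaffold Xrcc1 (51.1 ± 0.13). The glycosylases Neil2 and Neil3 stood at 0.29 ± 0.19 and 0.13 ± 0.05 TPM. Tdg lay between Neil1 and Apex1 in mean level, and its range did not overlap that of Neil1.

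For the TET enzymes, 6 of 9 partners and suppliers of their cosubstrate 2-oxoglutarate were detected. Ogt, the O-GlcNAc transferase that binds TET proteins, stood at 141 ± 10.1 TPM, and the isocitrate dehydrogenases Idh2 and Idh3a at 93.1 ± 10.6 and 73.7 ± 12.2 TPM. D2hgdh, which removes D-2-hydroxyglutarate, stood at 24.2 ± 1.97 TPM. Cxxc5 and Cxxc4, CXXC proteins that partner Tet2, stood at 0.71 ± 0.14 and 0.05 ± 0.05 TPM, and Wt1, which binds Tet2, at 0.01 ± 0.02 TPM.

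All 8 genes of methyl donor supply were detected. Mat2a and Mat2b, the catalytic and regulatory subunits of the enzyme that makes S-adenosylmethionine, stood at 370.0 ± 31.0 and 212 ± 23.8 TPM, and the amino acid transporters Slc7a5 and Slc43a2 at 43.7 ± 4.13 and 32.6 ± 3.53 TPM.

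Proliferation genes were given beside Dnmt1 and Uhrf1 because both are known to rise in dividing cells. Of 18 such genes 7 were detected, with a median of the mean TPM of 0.59. The helicase subunits Mcm2 and Mcm5 were highest, at 54.5 ± 3.46 and 27.3 ± 1.33 TPM, followed by Cdc20 (8.45 ± 0.62) and Rrm2 (7.73 ± 0.28). Mki67, a gene of cycling cells named here after its values were seen, stood at 0.06, 0.17 and 0.18 TPM. Dnmt1 stood at 63.4 ± 3.52 TPM and Uhrf1 at 3.47 ± 1.00 TPM in the same libraries. Any part of cell division in these levels was not tested.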

How the data were processed

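The 3 technical libraries held polyA-selected RNA from the naive CD4 T cells of 1 mouse (Covaris shearing, size range 100 to 300, assembly mm10, per the labels). The authors deposited gene and transcript tables on GENCODE M21 with expected counts, TPM, isoform percent (a transcript's percent of its gene's TPM), lengths, effective lengths and posterior standard deviations, and whole-number counts for 22457 genes on GENCODE M4. Aligner, counting tool and use of strand: not given in the sources used here. Entries that name no gene held 0.247%, 0.200% and 0.325% of expected counts and entered neither library sizes nor tests. All gene identifiers of the 10 members matched M21.

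Log2 ratios used TPM plus a pseudocount of 0.1; pooled ratios carry exact Clopper-Pearson 95% intervals on length-scaled expected counts. Complete coding forms are protein-coding transcripts without a tag for an incomplete start or end. Expected counts were rounded, library sizes scaled with edgeR 4.0.16 in R 4.3.3 (TMM, genes averaging 10 counts or more), and each of those genes tested by chi-square homogeneity (scipy 1.17.1) with Benjamini-Hochberg adjustment. On simulated libraries of 13090 genes, with counting error only and known changes set in 1 library, this test called 24 of 50 genes changed 1.2-fold, 50 of 50 changed 4-fold and 4 of 12890 unchanged. The simulation held no error from splitting reads or from library preparation. It therefore cannot give the rate of false calls in these data. Stretches of 50 bases were compared between M21 transcripts, since length minus effective length was 49 in the deposited tables. Promoter windows came from RefSeq on GRCm38.p6, with windows for 9 of 10 members. The text names all members, the 4 highest genes of each pathway list and of the proliferation list, pathway genes below 1 TPM, forms of at least 10% and coding forms with another first exon; Mki67 and markers stand apart from that rule. A gene that this rule names is not reported here, though it counts in its list's totals. Members and lists were chosen with earlier results of these data known. Alternatives covered pseudocounts of 1 and 0.01, posterior mean and rescaled TPM, counts with no length correction, the older count table, DESeq2 size factors (1.42.0), library totals, other minimums and each library left out.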

Additional observations from a re-analysis of the deposited data

How the results depend on the processing

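The log2 ratio of Dnmt1 to Dnmt3a, 0.09 over all forms, was 1.16 from expected counts with no length correction, 1.63 from the older count table and 1.67 on complete coding forms; leaving out 1 library gave -0.063 (without library 2) to 0.19. Uhrf1 to Uhrf2 moved from -4.64 to -3.52 on complete coding forms. Tet2 to Tet3 moved from -0.70 to -0.66 with posterior mean TPM, -0.87 with no length correction and -0.77 on complete coding forms, keeping its sign. The summed writers to erasers moved from 0.13 to 0.39 on the older table and 1.32 on complete coding forms, and ran from 0.05 to 0.25 with 1 library left out. Pairs whose sign turned were Tet2 to Dnmt3a (0.0204 with no length correction and 0.14 on the older table), Tdg to Tet2 (-3.38 on the older table), Mbd2 to Dnmt1 (-0.62 on the older table, 0.58 from expected counts with no length correction) and Tet3 to Dnmt3a (-0.038 without library 2, up to 0.28 without library 1); the cause was not tested. The share of the 1620-residue Dnmt1 form, 50.9%, was 56.7% of expected counts and 57.4% among coding forms; the 689-residue Dnmt3a form, 20.0%, was 28.2% among coding forms; the Tet3 form without CXXC, 14.4%, was 40.2% of expected counts and 28.6% among coding forms. Genes that differed between libraries, 5238 (40.0% of those tested), were 1895 (18.9%) on the older table. They were 4875 (36.8%) without library 1, 1903 (14.7%) without library 2 and 3615 (27.6%) without library 3. Of the 10 members, 7 were called, and 4 on the older table. Without library 1 the test called 4 members (Uhrf2, Tet2, Tet3 and Mbd2). Without library 2 it called 4 (Dnmt1, Dnmt3a, Tet2 and Tet3), and without library 3 it called 5. With posterior mean estimates, the Uhrf1 forms of 782 residues moved from 77.6% to 39.0% and the Dnmt3b forms without both exons from 44.3% to 33.8%. Over all results, 37 of 60 alternatives for levels, 95 of 130 for pair ratios and 72 of 102 for form shares stayed within 1 SD with their sign kept. These tallies include the settings with 1 library left out. With 3 libraries such a mean always lies within 1 SD of the full mean, so those settings could not count as moved. No paired analysis was possible because the libraries form 1 group. Uhrf1, with 86 to 118 counts, and Dnmt3b, with 177 to 218, were limited by depth.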
